A study of Mus musculus with 10 samples.

Results

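The SOX, T-box and GATA genes encode 3 families of transcription factors that specify cell types during development. The set described here was chosen by symbol: every gene row named Sox, Tbx or Gata followed by digits only, without Sox9, Sox30 and Gata4. It held 35 of the 23420 genes counted, made up of 17 SOX, 13 T-box and 5 GATA genes. PolyA RNA of spermatogenic cells from testes of mice at postnatal day 18 had been sequenced in 5 Ino80cKO and 5 Ino80WT libraries. The cells came from seminiferous tubules digested with collagenase and trypsin and filtered, and the mice were of mixed background. Ino80cKO testes carried a testis-specific Ino80 deletion made with Stra8-Cre, a transgene whose promoter drives Cre in male germ cells and not in Sertoli, Leydig, vascular or blood cells. The labels do not say whether Ino80WT mice carried Cre or a floxed allele, nor whether each library came from its own animal, and the p-values therefore reflect spread between libraries only, which may be technical. No sorting was described.

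SOX proteins bind DNA through an HMG box that bends the helix, T-box proteins through the T domain named after Brachyury, and GATA proteins through zinc fingers that read the sequence GATA. In the testis, SOX8 acts beside SOX9 in Sertoli cells, the somatic cells that nurse germ cells. GATA1 is made by Sertoli cells of the juvenile testis and GATA6 by Sertoli and Leydig cells, while SOX3 acts in spermatogonia and SOX5 and SOX6 are known from germ cells of the testis. Many other genes of these families are silent in the testis and are classical targets of polycomb, the repressor system that the title of the series links to INO80, an ATP-dependent chromatin remodeller. The comparison therefore asks which of these genes were at a different level in cells with the deletion.

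Gene counts per library ranged from 16750609 to 23700094, so that a floor of 3 counts lay between 0.127 and 0.179 CPM (counts-per-million units), a limit for counting error only. Levels are CPM after scaling by TMM (trimmed mean of M values), errors of levels are SD and errors of log2 fold changes (Ino80cKO over Ino80WT) are SE, n = 5 libraries a group. Positions are on GRCm38 (mm10). A gene was called at a Benjamini-Hochberg adjusted p below 0.05 over all 15265 genes tested with edgeR's quasi-likelihood test. Ino80 itself measured 94.4 to 97.4 CPM in Ino80cKO and 75.8 to 110.1 CPM in Ino80WT libraries (log2 fold change 0.02 ± 0.09, adjusted p = 0.889). The labels do not name the deleted exons, so this count over the whole gene does not check the labels. The labelled cell type was present: summed CPM of 10 pachytene spermatocyte markers was 1045 to 1825 in Ino80cKO and 2966 to 5006 in Ino80WT libraries. Sertoli cells were present too, with 10 markers summing to 5106 to 7152 CPM in Ino80cKO and 3570 to 5736 CPM in Ino80WT libraries.

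RefSeq promoters (250 bases before to 50 after a transcript start, GRCm38.p6, which is mm10) were at hand for 25 of the 35 genes. Printed here, 5′ to 3′ with each CG dinucleotide in capitals, are those of the gene with the largest called change in each family, together with Sox6, the SOX gene that fell. They are Sox13 (minus strand, chr1:133424163-133424462), Sox6 (minus strand, chr7:116038695-116038994), Tbx4 (plus strand, chr11:85896515-85896814) and Gata1 (minus strand, chrX:7967861-7968160). Where the table lists several starts its outermost one was taken. It is not always the outer end of the gene: the start used lay 2.03 kb inside Sox6, 10.4 kb inside Tbx4 and 8.75 kb inside Gata1, so these 3 windows surround an internal start, and that of Sox13 lay 247 bases inside. Of the 25 windows 6 lay wholly within the gene.
Sox13: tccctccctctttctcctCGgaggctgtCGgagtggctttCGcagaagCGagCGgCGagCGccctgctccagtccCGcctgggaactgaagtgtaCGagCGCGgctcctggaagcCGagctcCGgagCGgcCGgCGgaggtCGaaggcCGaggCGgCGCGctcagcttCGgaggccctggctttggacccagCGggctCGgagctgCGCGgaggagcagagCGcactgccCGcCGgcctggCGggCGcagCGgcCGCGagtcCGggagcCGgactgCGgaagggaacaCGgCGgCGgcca
Sox6: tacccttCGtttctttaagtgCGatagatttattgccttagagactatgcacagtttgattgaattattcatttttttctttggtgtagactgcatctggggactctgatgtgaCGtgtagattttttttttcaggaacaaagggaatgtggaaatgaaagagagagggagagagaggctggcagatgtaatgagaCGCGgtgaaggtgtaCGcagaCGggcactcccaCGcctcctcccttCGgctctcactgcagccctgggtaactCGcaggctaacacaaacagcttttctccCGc
Tbx4: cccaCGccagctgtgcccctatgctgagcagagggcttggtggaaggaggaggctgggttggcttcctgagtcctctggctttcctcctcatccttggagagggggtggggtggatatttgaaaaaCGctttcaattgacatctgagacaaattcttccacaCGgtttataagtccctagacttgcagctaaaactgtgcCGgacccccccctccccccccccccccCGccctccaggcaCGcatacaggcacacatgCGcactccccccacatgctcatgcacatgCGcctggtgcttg
Gata1: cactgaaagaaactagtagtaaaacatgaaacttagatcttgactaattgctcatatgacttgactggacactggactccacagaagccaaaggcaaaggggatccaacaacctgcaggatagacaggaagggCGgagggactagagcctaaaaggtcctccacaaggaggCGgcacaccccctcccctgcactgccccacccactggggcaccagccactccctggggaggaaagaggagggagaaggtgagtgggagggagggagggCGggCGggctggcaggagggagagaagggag
The Sox13 window held 40 CG dinucleotides, that of Sox6 11, that of Tbx4 8 and that of Gata1 4. Which start was used in these cells was not tested. Over the 25 promoters of the set the median was 21, against 7 over the 27025 promoters in the table. CG-rich promoters are typical of developmental regulators that polycomb binds. Among the 9 called genes with a promoter in the table, the count ran from 47 in Sox12 to 1 in Tbx22, and both of these genes rose. Both genes that fell, Sox6 and Tbx4, lay at 11 and 8, each in a window around an internal start. Searched on both strands, the SOX hexamers ACAATG and ACAAAG occurred in 2 and 3 of the 25 promoters (12.8% and 18.7% of all promoters), and the GATA hexamer AGATAA in 2 (11.4%). The T-box octamer AGGTGTGA was not found in these windows (1.28% of all promoters), and the YY1 sequence GCCATNTT was found in 1 (6.20%). A match is a stretch of letters and not a known binding site.

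Of the 35 genes, 25 passed the count filter and 10 did not. In Ino80cKO libraries 8 of the 25 were higher, 2 were lower and 15 did not pass the test, 10 calls or 40.0% in all. Over all genes tested 45.9% were called, 18.3% higher and 27.6% lower, so the share of calls in the set was near that of all genes. The median log2 fold change was 0.28 over the 25 genes and 0.02 over all tested genes. All changes were under 2-fold. The genes that rose were Sox4, Sox8, Sox11, Sox12, Sox13, Tbx22, Gata1 and Gata6, and those that fell were Sox6 and Tbx4. Groups did not overlap for 7 of the 25 genes, against 32% of all tested genes. In bulk RNA, fewer or more cells of a type and less or more RNA per cell cannot be told apart. Scaled by library totals, with which the median of all tested genes was 0.19 in place of 0.02, 12 genes of the set were higher and 1 lower (65.1% of all calls were then higher, against 39.8% with TMM).

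**Figure D1:**
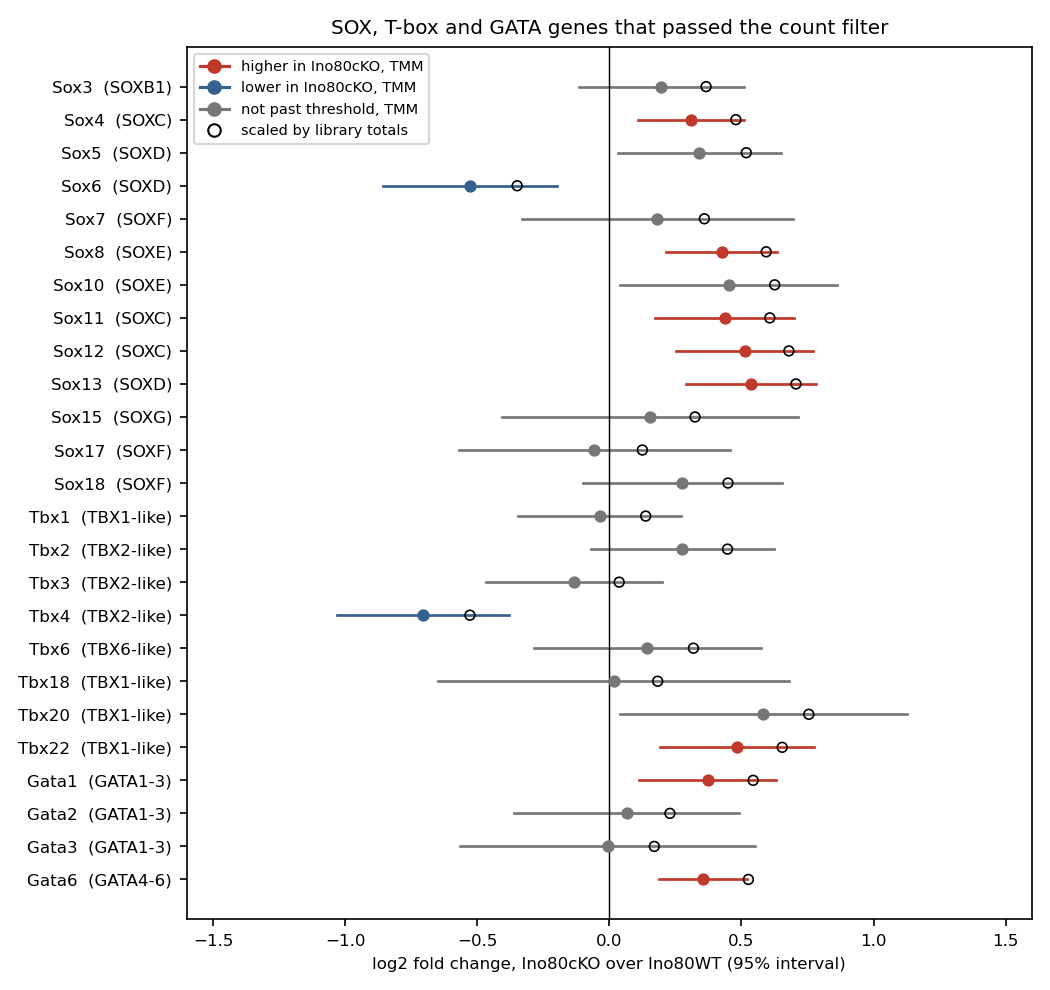
Log2 fold change of the 25 genes that passed the count filter (x axis, Ino80cKO over Ino80WT, filled dots with 95% intervals; subgroup in brackets), with the value after scaling by library totals as an open circle. Of the filled dots 19 lie above 0, and of the open circles 23; Sox6 and Tbx4 are below 0 by both.

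The SOXC genes, which encode activators that keep progenitor cells of many organs alive and immature, all rose. Sox4 (chromosome 13, 28948919 to 28953699), a gene also needed in the developing gonad, measured 64.0, 71.6, 79.7, 67.3 and 78.7 CPM in Ino80cKO and 62.7, 63.1, 52.3, 63.1 and 50.4 CPM in Ino80WT libraries. Every Ino80cKO value was above every Ino80WT value, though the nearest ones nearly touched. The rise was 1.24-fold (log2 0.31 ± 0.09, adjusted p = 0.0167). Without both libraries numbered 3 its adjusted p was 0.0564. Sox11 (chromosome 12, 27334268 to 27342718), best known from the nervous system, stood at 14.6, 19.6, 14.9, 15.1 and 18.4 CPM in Ino80cKO and 13.3, 10.4, 13.0, 13.6 and 10.8 CPM in Ino80WT libraries. It was 1.35-fold higher (log2 0.44 ± 0.12, adjusted p = 0.0111), with no overlap between groups. Sox12 (chromosome 2, 152393611 to 152398046), the third SOXC gene, was at 86.5, 87.6, 106.3, 90.3 and 72.4 CPM in Ino80cKO and 69.1, 64.9, 48.3, 71.7 and 56.7 CPM in Ino80WT libraries. The lowest Ino80cKO library, number 5, lay just above the highest Ino80WT library, number 4. Its rise was 1.43-fold (log2 0.51 ± 0.12, adjusted p = 0.00452).

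SOXD genes encode proteins with a coiled coil and no activation or repression domain of their own, and they split. Sox13 (chromosome 1, 133382300 to 133424459), known from T cells and arteries, measured 22.3, 26.3, 25.8, 19.9 and 24.2 CPM in Ino80cKO and 14.9, 18.9, 14.5, 18.8 and 14.5 CPM in Ino80WT libraries. The groups did not overlap, and the rise was 1.45-fold (log2 0.54 ± 0.11, adjusted p = 0.00245). Sox6 (chromosome 7, 115470872 to 116040776), a regulator of cartilage and red cell genes first found in testis, had 49.1, 49.0, 52.0, 55.8 and 45.9 CPM in Ino80cKO and 43.8, 77.9, 89.6, 71.7 and 80.2 CPM in Ino80WT libraries. In 4 of the 5 Ino80WT libraries it was above all Ino80cKO libraries, while Ino80WT 1 was below all of them. It fell 1.44-fold (log2 -0.53 ± 0.15, adjusted p = 0.0138), and by 0.64 on the log2 scale without Ino80WT 1. The call was lost when libraries were scaled by their totals (log2 -0.35, adjusted p = 0.0543) and without both libraries numbered 3 (adjusted p = 0.0559). Beside it, all 10 pachytene spermatocyte markers fell (median -1.33 on the log2 scale), and their part in the fall of Sox6 was not tested. Sox5, whose short form is made in spermatids, measured 9.39, 7.84, 8.15, 7.56 and 7.85 CPM in Ino80cKO and 5.98, 7.40, 5.19, 5.46 and 8.28 CPM in Ino80WT libraries. Its groups overlapped through Ino80WT 5, and it missed the threshold (log2 0.34 ± 0.14, adjusted p = 0.067). Without Ino80WT 5 its log2 fold change was 0.44 (adjusted p = 0.0232).

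**Figure D2:**
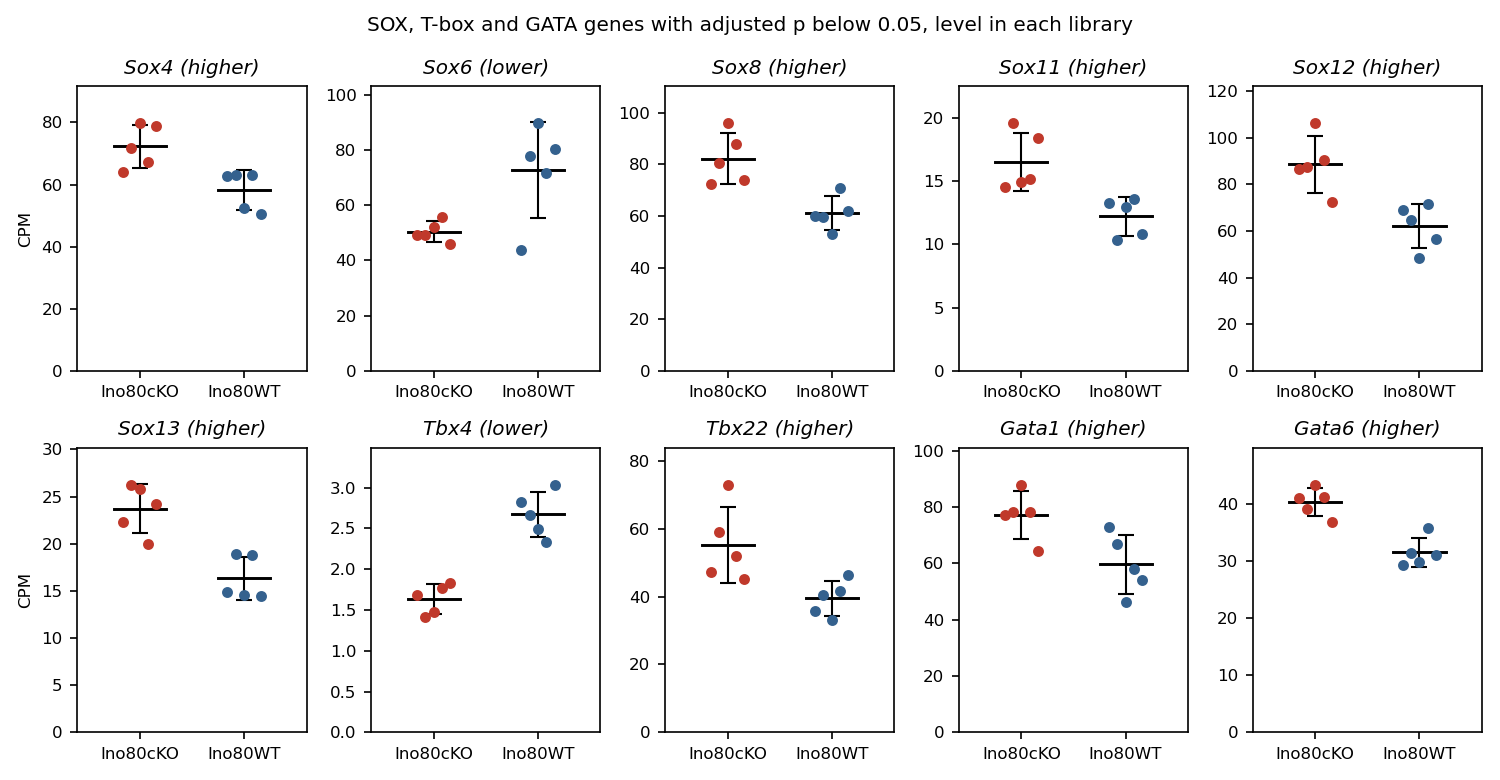
CPM (y axis, from 0) of the 10 called genes in each library, Ino80cKO left and Ino80WT right; lines are means and bars SD of 5 libraries. The Sox6 panel has 1 Ino80WT library, at 43.8 CPM, below every Ino80cKO library, while Tbx4 does not overlap.

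Of the tested SOXE genes, Sox8 (chromosome 17, 25565893 to 25570686), a partner of Sox9 in Sertoli cells, rose. Sox8 stood at 72.4, 80.4, 95.9, 87.8 and 73.7 CPM in Ino80cKO and 59.8, 59.6, 53.0, 70.9 and 62.0 CPM in Ino80WT libraries. All Ino80cKO libraries were above all Ino80WT libraries, a rise of 1.34-fold (log2 0.42 ± 0.10, adjusted p = 0.00395). Sox8 overlaps the counted gene 2810468N07Rik on the opposite strand, and reads of the overlap cannot be assigned to one of them if counting ignored strand; the library kit marked strand, and the counting setting is not known here. Sox10, a regulator of neural crest and Schwann cells, measured 3.01, 2.996, 3.31, 2.41 and 3.41 CPM in Ino80cKO and 1.64, 2.82, 2.50, 2.46 and 1.55 CPM in Ino80WT libraries. The groups overlapped only through Ino80cKO 4, and the difference did not pass (log2 0.45 ± 0.19, adjusted p = 0.0681). Markers of Schwann and neural cells summed to 144.9 to 255.3 CPM in Ino80cKO and 117.4 to 208.9 CPM in Ino80WT libraries. Their part in the Sox10 value was not tested.

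The SOXF genes Sox7, Sox17 and Sox18, regulators of blood and lymph vessel endothelium, had 0 calls in edgeR, 0 at an unadjusted p below 0.05 and 0 in DESeq2. Sox17 was at 3.52, 2.95, 5.28, 3.68 and 2.07 CPM in Ino80cKO and 3.46, 3.27, 4.62, 2.55 and 4.35 CPM in Ino80WT libraries, and Sox18 at 6.85, 5.68, 3.95, 5.15 and 4.05 CPM in Ino80cKO and 4.78, 4.58, 3.44, 4.66 and 3.81 CPM in Ino80WT libraries. Both overlapped widely. Sox7 averaged 1.64 ± 0.34 CPM in Ino80cKO and 1.45 ± 0.47 CPM in Ino80WT. The 95% interval of the log2 fold change ran from -0.57 to 0.45 for Sox17, from -0.10 to 0.65 for Sox18 and from -0.33 to 0.69 for Sox7, intervals that include changes of the size called above. Sox3, the X-linked SOXB1 gene of spermatogonia, measured 22.1, 22.4, 20.05, 20.9 and 27.5 CPM in Ino80cKO and 20.8, 21.8, 19.1, 23.5 and 13.0 CPM in Ino80WT libraries. The lowest value, in Ino80WT 5, stood apart from the rest, and the log2 fold change of 0.20 ± 0.14 did not pass (adjusted p = 0.278). Sox15, a SOXG gene of muscle precursors and placenta, lay near the filter at 0.574 ± 0.094 CPM in Ino80cKO and 0.510 ± 0.153 CPM in Ino80WT (adjusted p = 0.66), and it overlaps Mpdu1 on the opposite strand.

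T-box genes gave 2 calls among 8 that passed the filter. Tbx22 (chromosome X, 107667964 to 107688980), an X-linked gene needed for closure of the palate, measured 47.2, 58.9, 72.9, 51.8 and 45.1 CPM in Ino80cKO and 35.7, 40.5, 33.1, 41.6 and 46.4 CPM in Ino80WT libraries. Only Ino80cKO 5 fell within the range of Ino80WT, and the rise was 1.398-fold (log2 0.48 ± 0.13, adjusted p = 0.0113). Tbx4, a hindlimb and lung gene, was at 1.68, 1.41, 1.48, 1.77 and 1.83 CPM in Ino80cKO and 2.83, 2.67, 2.50, 2.33 and 3.04 CPM in Ino80WT libraries, from 178 and 254 counts over each group. It fell 1.63-fold with no overlap between groups (log2 -0.70 ± 0.15, adjusted p = 0.00258), the largest change among the called genes of the set.

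Other T-box genes did not pass. Tbx1, a gene of the pharyngeal arches, stood at 9.51, 11.6, 9.23, 10.1 and 13.9 CPM in Ino80cKO and 13.6, 10.3, 11.98, 10.9 and 8.99 CPM in Ino80WT libraries (log2 -0.04 ± 0.14, adjusted p = 0.847). Tbx2, a repressor that blocks senescence, had 7.004, 7.58, 7.26, 7.17 and 5.38 CPM in Ino80cKO and 7.30, 6.44, 4.06, 5.24 and 5.48 CPM in Ino80WT libraries (log2 0.28 ± 0.16, adjusted p = 0.173). Its near relative Tbx3 was at 5.24, 5.68, 5.14, 5.84 and 6.47 CPM in Ino80cKO and 4.84, 6.997, 6.79, 7.66 and 4.70 CPM in Ino80WT libraries (log2 -0.13 ± 0.15, adjusted p = 0.49). In each of these 3 genes the groups overlapped, and for Tbx3 the Ino80WT libraries spread on both sides of all Ino80cKO libraries. Tbx6, a gene of the paraxial mesoderm, Tbx18, of the sinus node and ureter, and Tbx20, of the heart, each averaged under 1 CPM. Tbx6 was at 0.917 ± 0.154 CPM in Ino80cKO and 0.830 ± 0.106 CPM in Ino80WT, and Tbx18 at 0.890 ± 0.294 CPM in Ino80cKO and 0.869 ± 0.327 CPM in Ino80WT (adjusted p = 0.597 and 0.969). Among the 25 genes that passed the filter, Tbx20 had the largest fold change without a call (0.847 ± 0.222 CPM in Ino80cKO and 0.561 ± 0.128 CPM in Ino80WT, log2 0.58 ± 0.25, adjusted p = 0.0734), from 94 and 55 counts.

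GATA genes gave 2 rises among 4 that passed the filter. Gata1 (chromosome X, 7959260 to 7976663), the erythroid master regulator that is also made in Sertoli cells, measured 77.2, 78.3, 87.9, 78.1 and 64.3 CPM in Ino80cKO and 72.9, 66.7, 46.4, 57.9 and 54.2 CPM in Ino80WT libraries. Ino80cKO 5 lay within the Ino80WT range, and the rise was 1.295-fold (log2 0.37 ± 0.12, adjusted p = 0.0227). The call was lost without Ino80WT 5 (adjusted p = 0.0576) and without both libraries numbered 3 (adjusted p = 0.0649). Gata6 (chromosome 18, 11052510 to 11085636), an endoderm and heart gene made in Sertoli and Leydig cells, was at 41.0, 39.1, 43.4, 41.3 and 36.9 CPM in Ino80cKO and 29.3, 31.5, 29.9, 35.9 and 31.1 CPM in Ino80WT libraries. Its groups did not overlap, and the rise of 1.28-fold had the smallest error in the set (log2 0.35 ± 0.08, adjusted p = 0.00298). Gata2, a gene of blood stem cells, measured 4.23, 4.19, 3.80, 5.55 and 4.30 CPM in Ino80cKO and 3.27, 3.78, 3.44, 6.54 and 3.93 CPM in Ino80WT libraries. The library numbered 4 was the highest in both groups, and the difference did not pass (adjusted p = 0.799). Gata3, a regulator of T helper cells, stood at 0.773 ± 0.199 CPM in Ino80cKO and 0.768 ± 0.231 CPM in Ino80WT (adjusted p = 0.986), and it overlaps the counted gene 9230102O04Rik on the same strand.

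Levels between genes were compared per kb of exon, using GENCODE M21 exons. Gata1 was highest at 31.7 ± 3.5 CPM per kb in Ino80cKO and 24.5 ± 4.3 CPM per kb in Ino80WT, followed by Sox8 (26.3 ± 3.2 in Ino80cKO and 19.6 ± 2.1 in Ino80WT). Sox12 came next at 19.9 ± 2.7 CPM per kb in Ino80cKO and 14.0 ± 2.2 CPM per kb in Ino80WT, with Sox4 close to it in Ino80WT (12.2 ± 1.3). Gata1 and Sox8 lay closer than the sum of their SDs, and so did Sox12 and Sox4 in Ino80WT but not in Ino80cKO, while Sox8 and Sox12 lay farther apart than that in both groups. Below them lay Sox3, Tbx22, Gata6 and Sox13. Tbx4 was lowest of the called genes, at 0.480 ± 0.053 CPM per kb in Ino80cKO and 0.786 ± 0.081 CPM per kb in Ino80WT. Next above it among them was Sox11, at 1.99 ± 0.28 CPM per kb in Ino80cKO and 1.47 ± 0.18 CPM per kb in Ino80WT.

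**Figure D3:**
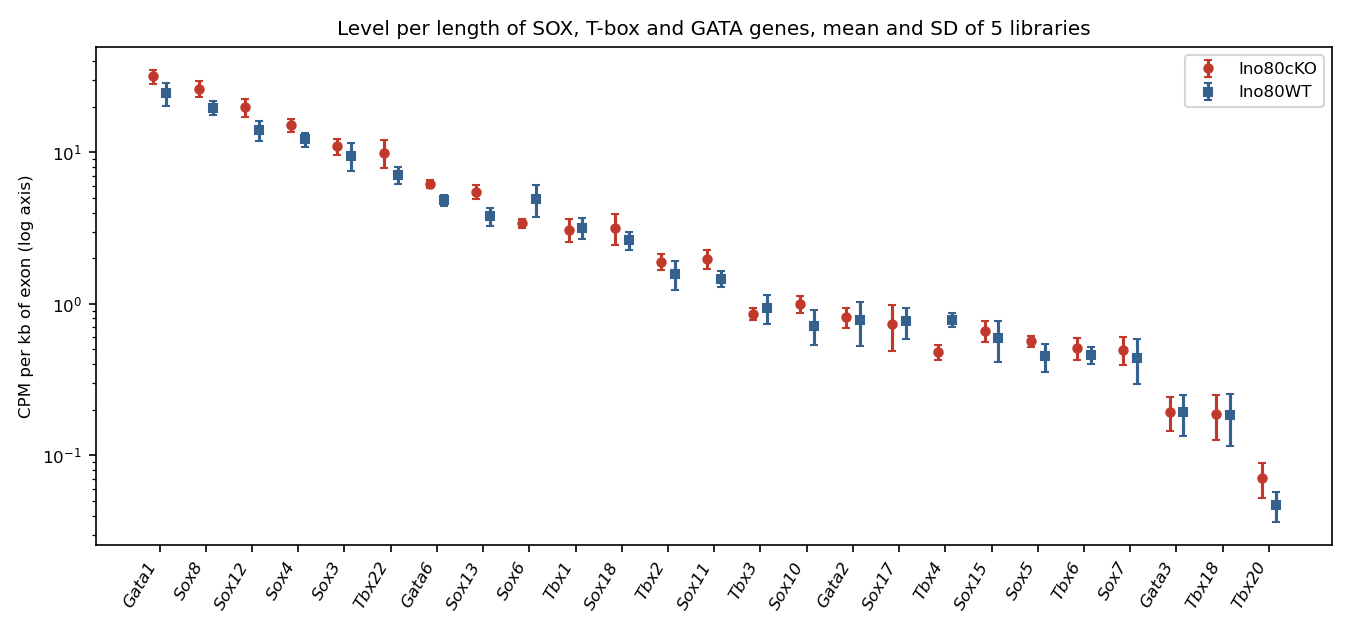
Mean level per kb of exon (y axis, CPM per kb, log axis) of the 25 genes that passed the filter, ordered from high to low; bars are SD of 5 libraries, circles Ino80cKO and squares Ino80WT. Gata1, Sox8, Sox12 and Sox4 lead the order, and Tbx20 is last at 0.0706 CPM per kb in Ino80cKO and 0.0468 in Ino80WT.

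Ratios of counts within a library do not depend on the scaling. They are given for 3 pairs as a description with no test, since the pairs were chosen after the values of their genes were seen. The Sox6 to Sox13 ratio was 2.20, 1.87, 2.02, 2.80 and 1.90 in Ino80cKO and 2.94, 4.13, 6.17, 3.81 and 5.54 in Ino80WT libraries, with every Ino80cKO library below every Ino80WT library. The mean log2 ratio was 1.09 ± 0.24 in Ino80cKO and 2.12 ± 0.43 in Ino80WT. Tbx2 and Tbx4 lie 44.4 kb apart on chromosome 11 (Tbx2 at 85832615 to 85841948 and Tbx4 at 85886367 to 85916097, GRCm38). Their ratio, Tbx4 over Tbx2, was 0.240, 0.186, 0.204, 0.247 and 0.339 in Ino80cKO and 0.388, 0.414, 0.616, 0.444 and 0.554 in Ino80WT libraries. Again no libraries overlapped, with a mean log2 ratio of -2.07 ± 0.33 in Ino80cKO and -1.07 ± 0.28 in Ino80WT. For Gata1 over Gata6 the mean log2 ratio was 0.93 ± 0.09 in Ino80cKO and 0.90 ± 0.29 in Ino80WT, and the groups overlapped. The Ino80WT libraries ranged from 0.63 to 1.31 on that scale, wider than the Ino80cKO range of 0.80 to 1.02.

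**Figure D4:**
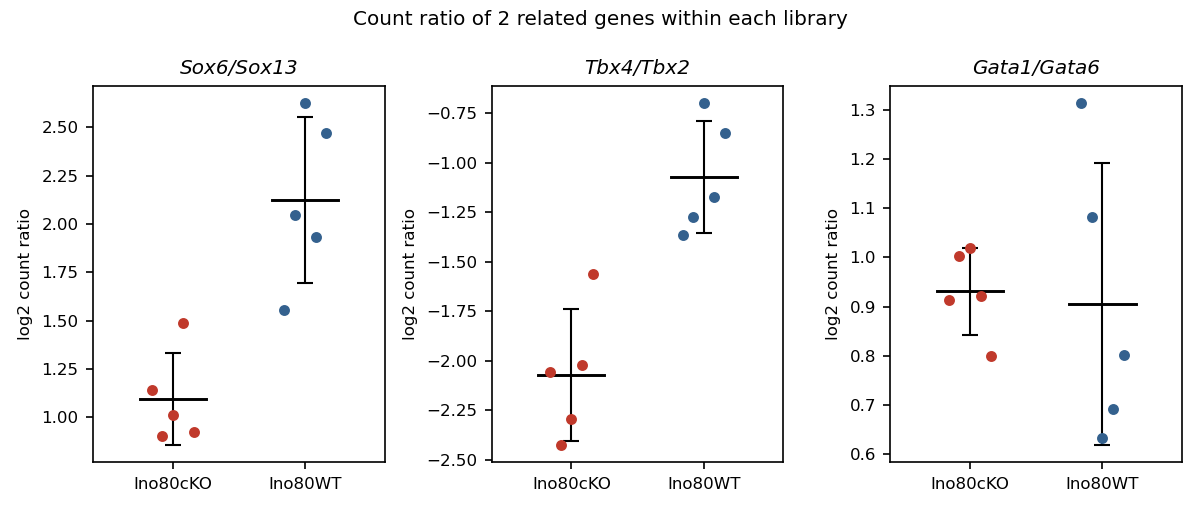
Log2 ratio of raw counts of 2 related genes in each library (y axes), Ino80cKO left and Ino80WT right; lines are means and bars SD. The groups do not overlap for Sox6/Sox13 and Tbx4/Tbx2 and do for Gata1/Gata6.

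All 3 X-linked genes of the set, Sox3, Tbx22 and Gata1, passed the filter, and 2 of them were higher. Of 599 tested X-linked genes in all, 49.4% were higher, with a median log2 fold change of 0.34, close to the 0.37 of Gata1 and the 0.48 of Tbx22. Among the 22 tested autosomal genes of the set 6 were higher and 2 lower, and of 14596 tested autosomal genes 17.0% were higher and 28.8% lower.

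The 10 genes below the filter averaged from 0 to 0.533 CPM in Ino80cKO and from 0 to 0.498 CPM in Ino80WT. Tbx5, Tbx15 and Tbx21 had the most counts of them, and Tbx5 was above the floor of 3 counts in all 10 libraries. Over 5 libraries each, Sox2, the pluripotency and neural factor, had 16 counts in Ino80cKO and 17 in Ino80WT, and the neural genes Sox14 and Sox21 had 8 and 14 in Ino80cKO and 7 and 10 in Ino80WT. Tbx5, of forelimb and heart, had 48 in Ino80cKO and 47 in Ino80WT, Tbx15, of the skeleton, 59 in Ino80cKO and 33 in Ino80WT, and Tbx19, the pituitary regulator of pro-opiomelanocortin, 11 in Ino80cKO and 18 in Ino80WT. Tbx21, which encodes T-bet of T helper cells, had 45 in Ino80cKO and 28 in Ino80WT, and Gata5, of heart and gut, 12 in Ino80cKO and 7 in Ino80WT. Sox1, a neural SOXB1 gene, had 14 counts in Ino80cKO and 45 in Ino80WT, of which 21 were in Ino80WT 3. Tbx10 had 0 counts in all 10 libraries. Taken singly, each library then allows up to 0.127 to 0.179 CPM by library totals, and all 10 together allow less.

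Relatives and partners outside the set gave the surroundings of these values. The left-out family genes moved both ways: Gata4 was at 105.2 ± 11.6 CPM in Ino80cKO and 68.9 ± 6.8 CPM in Ino80WT, Sox9 at 157.7 ± 22.9 CPM in Ino80cKO and 114.7 ± 14.7 CPM in Ino80WT, and Sox30, a spermatid factor, at 32.8 ± 4.8 CPM in Ino80cKO and 52.3 ± 10.9 CPM in Ino80WT (adjusted p = 0.000279, 0.00541 and 0.00225). The T-box genes without a number, T, Eomes, Tbr1 and Mga, had 0 calls of 4 in edgeR, 0 at an unadjusted p below 0.05 and 0 in DESeq2. Of 7 tested other HMG-box genes 4 were higher and 1 lower. Lef1, a WNT effector, had the largest change there, a fall to 18.9 ± 4.8 CPM in Ino80cKO against 45.3 ± 15.1 CPM in Ino80WT (log2 -1.26 ± 0.23, adjusted p = 0.000925), while its relatives Tcf7l2 and Tcf7l1 rose 1.505-fold and 1.31-fold and Hbp1, a repressor, rose 1.18-fold. The fourth gene that was higher was Bbx. The call of Tcf7l1 was lost without Ino80WT 5 (adjusted p = 0.0536), and that of Bbx without any 1 of Ino80cKO 1 to 4 and Ino80WT 3 (adjusted p = 0.0551 to 0.0657). Of 5 other genes with GATA-type zinc fingers 3 were higher and 1 lower: the repressor Trps1 rose 1.495-fold, the NuRD subunits Gatad2a and Gatad2b rose 1.19-fold and 1.37-fold, and Gatad1 fell 1.46-fold.

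Among 9 tested GATA cofactors and partners 3 were higher. Runx1 rose 1.81-fold to 2.26 ± 0.41 CPM in Ino80cKO against 1.24 ± 0.20 CPM in Ino80WT, and Zfpm1, the Friend of GATA cofactor, and Ldb1, an adaptor of GATA complexes, rose 1.33-fold and 1.28-fold. Of 6 tested SOX partners 1, Nr5a1 (steroidogenic factor 1), was higher, at 116.6 ± 13.4 CPM in Ino80cKO and 86.1 ± 13.9 CPM in Ino80WT (adjusted p = 0.0102). Of 9 textbook targets of SOX and GATA factors in Sertoli cells 2 passed, Fshr (1.46-fold higher) and Inhbb (1.31-fold higher), and the anti-Müllerian hormone gene Amh did not (adjusted p = 0.65). Of 6 tested targets in Leydig cells 4 were higher: Lhcgr, Hsd3b6, Star and Hsd3b1, by 2.16-fold, 1.91-fold, 1.98-fold and 1.45-fold. Leaving out 1 library ended some of these calls: Inhbb without any 1 of Ino80cKO 1 to 4 and Ino80WT 2, 3 and 5 (adjusted p = 0.0610 to 0.0878), Hsd3b1 without any 1 of Ino80cKO 1, 2 and 4 and Ino80WT 3 and 4 (0.0534 to 0.0776), and Star without Ino80cKO 3 (0.0509) or Ino80WT 3 (0.0570). The log2 fold change of Star was 0.99 ± 0.32 with all libraries, 0.64 without Ino80cKO 3 and 0.50 without both libraries numbered 3 (adjusted p = 0.0683). Of 8 endothelial targets of SOXF factors 1, Robo4, was higher (1.58-fold). Target and marker lists share genes and are not separate evidence. Cdh5, Pecam1, Tie1, Tek, Kdr and Flt1 are also among the endothelial markers below. Amh, Dhh, Inha, Fshr and Cldn11 are also among the Sertoli markers. Of 9 lymphoid targets of T-bet and GATA3 0 passed the count filter.

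Markers of somatic cells moved the same way as most of the called genes. Of 10 Sertoli markers 3 were higher, with a median log2 fold change of 0.32, beside 0.42 for Sox8, 0.37 for Gata1 and 0.35 for Gata6. Ino80cKO 3 held the highest and Ino80WT 3 the lowest Sertoli sum. The same libraries held the highest and lowest values of Sox8, Sox12, Tbx22 and Gata1. These extremes were not particular to Sertoli markers. Leydig, peritubular myoid, endothelial, macrophage, and Schwann and neural sums had them too, and the pachytene sum had the reverse. Fibroblast or interstitial markers were highest in Ino80cKO 1 and lowest in Ino80WT 3, spermatogonial markers highest in Ino80cKO 5 and lowest in Ino80WT 5. The other genes that rose did not have both extremes in Ino80cKO 3 and Ino80WT 3. Sox4 and Gata6 were highest in Ino80cKO 3 but lowest in Ino80WT 5 and Ino80WT 1. Sox11 and Sox13 were highest in Ino80cKO 2 and lowest in Ino80WT 2 and Ino80WT 5. Leydig markers, the same genes as the Leydig targets, summed to 52.8 to 115.7 CPM in Ino80cKO and 28.2 to 75.2 CPM in Ino80WT libraries. Macrophage markers had a median of 0.82 (5 of 8 higher) and summed to 72.8 to 101.9 CPM in Ino80cKO and 52.9 to 75.8 CPM in Ino80WT libraries. Fibroblast or interstitial markers had a median of 0.47 (5 of 6 higher) and peritubular myoid markers 0.24 (1 of 6 higher). Endothelial markers had a median of 0.24, with 0 of 8 called in edgeR, 0 at an unadjusted p below 0.05 and 1 in DESeq2. Spermatogonial markers had a median of 0.19 (3 of 8 higher). Lymphoid, erythroid and mast cell lists had 2, 2 and 0 genes past the filter. The globin genes Hba-a1 and Hba-a2 had 0 counts in every library, but other erythroid genes were counted. Hbb-bs was at 4.96 ± 1.93 CPM in Ino80cKO and 4.75 ± 3.41 CPM in Ino80WT. Alas2 was at 1.66 ± 0.79 CPM in Ino80cKO and 2.07 ± 0.83 CPM in Ino80WT, and neither gene was called. The part of these cell types in the values of the SOX, T-box and GATA genes was not tested.

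**Figure D5:**
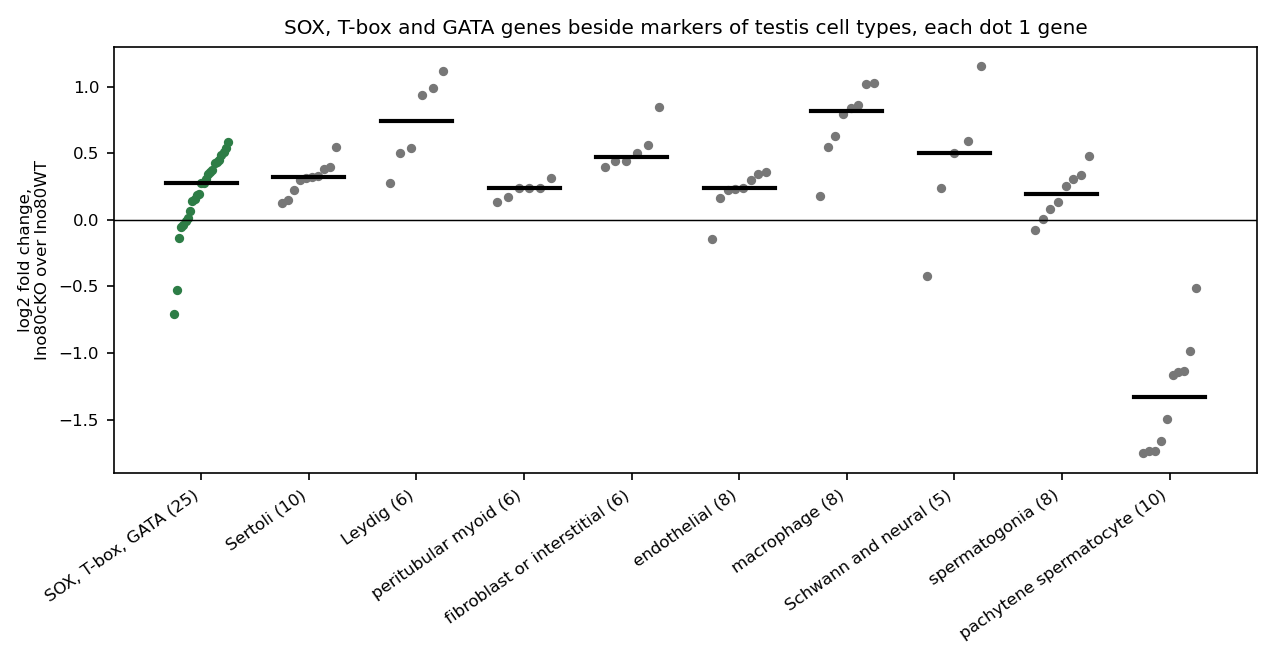
Log2 fold change (y axis, Ino80cKO over Ino80WT) of the tested SOX, T-box and GATA genes (first column) and of markers of 9 testis cell types (number of genes in brackets), 1 dot a gene, with the median as a bar. Medians of the somatic lists lie between 0.24 and 0.82, that of the SOX, T-box and GATA genes at 0.28, and that of pachytene markers at -1.33.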

How the data were processed

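PolyA RNA was sequenced in 10 libraries. The authors deposited whole-number read counts per gene, 1 file a library, not normalized, with 5 rows that name no gene (35.5% to 44.0% of reads), left out here. Per the submitters' processing notes, TopHat2, HTSeq, DESeq2 and mm10 were used, without versions or roles; the labels name neither the annotation nor the strand setting of the counting. Low genes were removed with filterByExpr, given the genotype groups, at a minimum count of 10 and a minimum total of 15; the rest were scaled by TMM and tested with edgeR 4.0.16 in R 4.3.3 (glmQLFit with robust dispersions, glmQLFTest, genotype only), with Benjamini-Hochberg adjustment over 15265 genes. SE is the size of the log2 fold change divided by the square root of F. Of the 25 genes that passed, 23 were over the filter's CPM in all 10 libraries, Sox15 and Tbx20 in fewer. The test was checked on simulated counts in which few genes changed, equally many up and down. In these data many genes were called and unequally, so the simulation does not check the test or the scaling under that setting. Alternatives were a replicate block, DESeq2 1.42.0, other size factors and filters, and leaving out libraries or Rn45s. No libraries were duplicates (lowest chi-square per degree of freedom 9.40). Genes, lists, subgroups and the naming rule (values in every library for called genes and for others averaging at least 2 CPM; up to 4 called genes of each related list) were chosen with earlier results of these data known. Of 141 listed genes 140 were found, Adgre1 as Emr1 and Hbb-bs as Beta-s; some are not reported here.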

Additional observations from a re-analysis of the deposited data

Results flagged for a closer look

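In 50 groups of 5 libraries (25 genes, 2 groups each) 4 single libraries lay far from the others of their group by Dixon's 95% criterion, which chance meets in about 1 group in 20. Tbx2 was at 5.38 CPM in Ino80cKO 5, with the other Ino80cKO libraries at 7.004 to 7.58 CPM. Tbx6 was at 1.01 CPM in Ino80WT 5, with the others at 0.755 to 0.818 CPM. Gata2 was at 5.55 CPM in Ino80cKO 4, with the others at 3.80 to 4.30 CPM, and at 6.54 CPM in Ino80WT 4, with the others at 3.27 to 3.93 CPM. None of these 3 genes was called.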

How the results depend on the processing

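The test was repeated under 20 alternatives. All 10 called genes kept their direction in all of them, and 6 (Sox8, Sox12, Sox13, Tbx4, Tbx22 and Gata6) kept their call. Library totals gave 5484 genes higher over all genes, 1 of the set lower, a median log2 fold change of 0.45 in the set, and 32 genes higher and 35 called in the related lists (20 and 23 with TMM). Upper-quartile factors gave 4886 genes higher over all genes, a median of 0.41 in the set, and 32 higher and 35 called in the related lists. Leaving out 1 library gave 8 to 9 genes of the set higher, 2 lower, 10 to 11 called and a median of 0.18 (without Ino80WT 3) to 0.30, with 2135 to 3282 genes higher, 3610 to 4275 lower and 5936 to 7506 called over all genes. Without Ino80WT 1 and 2, which held the most Rn45s, the median was 0.38. Without both libraries numbered 3, an alternative chosen after seeing the data, 1 gene of the set was lower and 6 higher, and 1914 genes were higher and 3357 lower over all genes (fewer samples). Among genes without a call, Sox5, Sox10, Tbx2 and Tbx20 were called in 7, 4, 2 and 2 alternatives. With no filter on low counts Sox1 was called lower (adjusted p = 0.0188) on 14 counts in Ino80cKO and 45 in Ino80WT.

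The labels do not say whether replicate numbers pair the libraries. Correlations of same-numbered deviations ran from -0.47 to 0.20. Of the Ino80cKO libraries, only number 1 correlated best with the Ino80WT library of its own number. So few libraries cannot decide whether they were paired. A replicate block gave 6 genes of the set higher and 2 lower, with 5493 called over all genes; Sox4 (adjusted p = 0.0636) and Sox11 (adjusted p = 0.0524) then missed the threshold, as did, in the related lists, Hbp1 (0.0522), Bbx (0.0638), Tcf7l1 (0.0647), Star (0.0876) and Inhbb (0.101). Star also missed it with no filter on low counts (adjusted p = 0.0513) and without Ino80WT 1 and 2 together (0.0504), and without both libraries numbered 3 so did Tcf7l1 (0.0716), Bbx (0.104) and Inhbb (0.114).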
